A study of Mus musculus with 4 samples.

Results

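The genes described here are 10 members of the AP-1 and immediate early group of transcription factors: Fos, Fosb, Fosl1, Fosl2, Jun, Junb, Jund, Egr1, Atf3 and Nr4a1. They were chosen by name, and each matched 1 row of the 54752 gene IDs in the deposited count table. RNA depleted of ribosomal RNA was sequenced from grafted abdominal aorta of mice, 4 weeks after transplantation. The ALLO grafts are allografts undergoing chronic rejection per the series title. The grafts set against them carry the label ISO, with no fuller name. Each group had 2 libraries (n = 2 per group throughout). The labels used here give no strain, sex, age or recipient, nor do they say whether 2 libraries of 1 group are 2 animals. The p-values therefore reflect the spread among these libraries alone, part of which may be technical.

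The libraries held 17532344 to 20194854 counts, and the 10 genes had 43 to 8979 counts each in a library. ISO replicate 1 stood apart in the X inactivation transcript Xist, with 10647 counts against at most 8 in the other libraries. It had 0 counts of the Y-linked gene Ddx3y, against at least 2105 in the others. ISO replicate 1 thus had a female pattern and the other libraries had a male pattern. The 2 ISO libraries were therefore not repeats from 1 animal, while for ALLO this stays unknown. Sex was not balanced between the groups, and its part in the differences was not tested. The smooth muscle markers that define the media of the aorta were present in every library. Their 9 genes summed to 1396 and 2659 CPM (counts per 1000000 counts of the library, after TMM scaling) in ALLO replicates 1 and 2, and to 31019 and 31287 CPM in ISO replicates 1 and 2.

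AP-1 is a dimer of basic leucine zipper proteins. Fos-type proteins bind DNA only with a partner, usually of the Jun type, while Jun proteins can also pair with each other. Most of these genes are silent or low in resting cells and are transcribed within minutes of a growth factor, cytokine, stretch or injury signal, without new protein synthesis, through serum response factor (SRF) with its cofactors and through CREB. In the vessel wall they are known from the early response of smooth muscle to injury, and in T cells AP-1 acts with NFAT on cytokine genes.

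The promoters of Fosb, Fos and Junb are shown because Fosb had the largest fall of the group, Fos is its relative that did not pass the test, and Junb had the most positive change. The set of RefSeq promoters used here (GRCm38.p6, the same assembly as mm10) held 8 of the 10 genes. Fosl1 and Egr1 were missing from that set, so their promoters were not searched. Each line gives 250 bases upstream of the RefSeq start, 5′ to 3′ on the gene's strand, with the CREB core motif TGACG and the TATA box TATAAA in capitals. Fosb is read from the minus strand at chr7:19310046-19310295, Fos from the plus strand at chr12:85473640-85473889 and Junb from the minus strand at chr8:84978749-84978998.
Fosb: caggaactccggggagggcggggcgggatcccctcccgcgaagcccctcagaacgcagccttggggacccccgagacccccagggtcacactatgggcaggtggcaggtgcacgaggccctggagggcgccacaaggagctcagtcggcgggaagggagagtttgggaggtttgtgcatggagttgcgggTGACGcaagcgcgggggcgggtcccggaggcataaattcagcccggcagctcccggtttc
Fos: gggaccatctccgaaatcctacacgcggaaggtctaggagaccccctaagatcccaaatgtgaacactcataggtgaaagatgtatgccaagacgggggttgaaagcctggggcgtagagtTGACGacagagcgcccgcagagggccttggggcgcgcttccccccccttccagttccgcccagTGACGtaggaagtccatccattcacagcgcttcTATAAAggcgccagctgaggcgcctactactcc
Junb: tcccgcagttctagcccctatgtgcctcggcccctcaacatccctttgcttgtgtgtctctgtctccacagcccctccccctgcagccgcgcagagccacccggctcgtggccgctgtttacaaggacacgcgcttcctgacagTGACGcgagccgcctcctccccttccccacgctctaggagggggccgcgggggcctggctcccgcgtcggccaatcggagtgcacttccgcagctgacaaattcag
Searched on both strands, TGACG stood in 5 of the 8 upstream windows (Fos, Fosb, Junb, Atf3 and Nr4a1), and in 17.8% of all 32851 RefSeq windows of this length. Nr4a1 held 4 matches, Fos 2 and the others 1 each. TATAAA stood in Fos alone among the 8, and in 12.4% of all windows. The GC box GGGCGG, not in capitals above, stood in 6 of 8, against 32.7% of all. The AP-1 site TGANTCA and the CArG box of SRF stood in 0 of 8 windows, against 6.75% and 1.47% of all. No matches of different motifs overlapped. The Jund window was 47.6% G and C and the others were 58.4% (Fos) to 74.4% (Nr4a1). The shares over all windows were not matched for this content. These are descriptions of the letters in a short window, and elements that lie outside it were not searched. Other spellings of a motif, such as TGACATCA in the Jun window, were not searched either. The RefSeq start lay 1210 bases from the start of the counted gene for Jund, 12577 for Nr4a1 and 34706 for Atf3.

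Of the 10 genes, Fosb and Jund fell in ALLO grafts and the other 8 did not pass the threshold of a Benjamini-Hochberg adjusted p under 0.05 (edgeR's quasi-likelihood test over 16498 genes). That is 2 of 10 lower, where 14.8% of all genes tested were lower (33.1% passed in either direction), so the count is close to the background. None rose, also at an unadjusted p under 0.05, with DESeq2 or with limma-voom, while 18.4% of all genes were higher. (Fosl2 passed as higher in the fit without ALLO replicate 1.) Unadjusted p was under 0.05 for 5 of the 10. Both ALLO libraries lay below both ISO libraries in 7 of the 10 genes, against 35.4% of all genes, and both lay above in 0, against 37.1% of all genes. The groups overlapped in Fosl1, Fosl2 and Junb. The median log2 change of the 10 was -0.79, against 0.03 over all genes, and leaving out ALLO replicate 1 gave -0.48, while leaving out ALLO replicate 2 gave -1.18. No member changed sign under another scaling. Leaving out ISO replicate 1 or ISO replicate 2 gave medians of -0.88 and -0.69. In whole tissue, fewer cells of a type and less RNA per cell cannot be told apart.

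**Figure D1:**
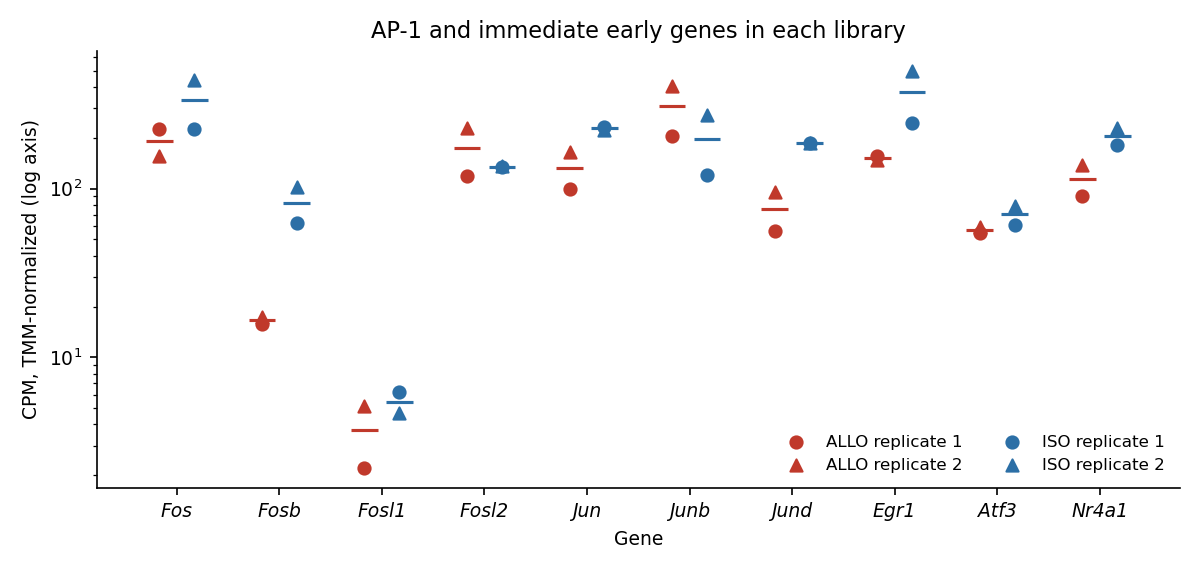
CPM (TMM-normalized, log axis) of the 10 genes in each library, with ALLO in red to the left of ISO in blue, circles for replicate 1, triangles for replicate 2 and bars at group means. Fosb shows the widest gap between groups, with 15.7 and 17.4 CPM in ALLO and 62.3 and 102 CPM in ISO.

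Within the Fos family, Fosb fell the most. Fosb encodes FosB and, by splicing, the truncated ΔFosB known from long-lasting stimulation in brain, forms that gene counts do not separate (ENSMUSG00000003545.3, chromosome 7, 19302696 to 19310051, minus strand, mm10). It had 15.7 and 17.4 CPM in ALLO replicates 1 and 2, and 62.3 and 102 CPM in ISO replicates 1 and 2. The ALLO libraries were nearly alike and the lower ISO library was still far above both. Fosb averaged 16.6 ± 1.24 CPM in ALLO and 81.9 ± 27.8 CPM in ISO (SD, n = 2 each), 4.95-fold lower, a log2 change of -2.31 ± 0.29 (SE, edgeR adjusted p = 0.00638). The call was made under every one of the 14 alternatives, with log2 changes of -1.93 to -2.63 when 1 library was left out.

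Fos, the founding member of the family and the partner of Jun in classical AP-1 (ENSMUSG00000021250.13, chromosome 12, 85473890 to 85477273, plus strand), had 225 and 156 CPM in ALLO, and 226 and 441 CPM in ISO. ALLO replicate 1 and ISO replicate 1 were nearly equal, and ISO replicate 2 stood 1.95-fold above ISO replicate 1. The log2 change of -0.81 ± 0.39 did not pass (edgeR adjusted p = 0.175). Leaving out ISO replicate 2 gave -0.27, and leaving out ISO replicate 1 gave -1.23.

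Fosl2 encodes Fra-2, a Fos-type protein without the strong activation domain of Fos, known for roles in fibrosis and bone in mice (ENSMUSG00000029135.10, chromosome 5, 32135801 to 32157842, plus strand). It had 118 and 228 CPM in ALLO, against 134 and 136 CPM in ISO. The ISO libraries were alike, ALLO replicate 1 lay under them and ALLO replicate 2 above them. The log2 change was 0.36 ± 0.34 (edgeR adjusted p = 0.468). Without ALLO replicate 1 Fosl2 passed as higher (0.79, edgeR adjusted p = 0.0475), and without ALLO replicate 2 its change was -0.18.

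Fosl1 encodes Fra-1, a transcriptional target of AP-1 itself (ENSMUSG00000024912.5, chromosome 19, 5447703 to 5455945, plus strand). It was the lowest of the 10, with 2.21 and 5.17 CPM in ALLO, and 6.20 and 4.71 CPM in ISO, and the groups overlapped. Its log2 change of -0.56 ± 0.53 did not pass (edgeR adjusted p = 0.464), with values of -0.04 when ALLO replicate 1 was left out and -1.29 when ALLO replicate 2 was. The value is uncertain, because 68.1% of its exonic bases also belong to Ccdc85b, which lies opposite, and no source used here states whether counting was by strand. Ccdc85b had 197 and 1179 counts in ALLO, and 1010 and 835 counts in ISO, so it too was lowest in ALLO replicate 1.

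In the Jun family, Jund fell, and Jun and Junb did not pass. Jund encodes JunD, the Jun protein that is present in resting cells and restrains growth in several cell types (ENSMUSG00000071076.6, chromosome 8, 70698949 to 70700616, plus strand, a single exon). It had 56.2 and 95.5 CPM in ALLO, and 186 and 186 CPM in ISO. The ISO libraries were equal to within 1 CPM and both ALLO libraries lay well under them. Jund averaged 75.8 ± 27.8 CPM in ALLO and 186 ± 0.278 CPM in ISO, 2.46-fold lower, with a log2 change of -1.30 ± 0.30 (edgeR adjusted p = 0.0287). The call was lost without ISO replicate 1 (edgeR adjusted p = 0.0513), without ISO replicate 2 (0.0540) and with scaling by library size alone (-1.10, 0.0512). The antisense gene Gm11175 covers 52.6% of its exonic bases and had 0 counts in all 4 libraries, and reads there may have been lost in the counting, so the level of Jund is uncertain.

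Jun, which encodes c-Jun, the target of the JNK kinases (ENSMUSG00000052684.4, chromosome 4, 95049034 to 95052222, minus strand, a single exon), had 100.1 and 165 CPM in ALLO, and 233 and 221 CPM in ISO. Both ALLO libraries were lower. The log2 change of -0.78 ± 0.29 did not pass (edgeR adjusted p = 0.102), and it passed without ALLO replicate 2 (-1.18, edgeR adjusted p = 0.0234). Without ALLO replicate 1 the change was -0.43 (edgeR adjusted p = 0.183). The antisense gene Junos covers 7.28% of its exonic bases.

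Junb encodes JunB, a weaker activator than c-Jun that is used by several T helper subsets (ENSMUSG00000052837.6, chromosome 8, 84974484 to 84978718, minus strand). It had 206 and 408 CPM in ALLO, against 121 and 272 CPM in ISO. The replicates of each group differed more than the group means did, with replicate 2 over replicate 1 at 1.98-fold in ALLO and 2.25-fold in ISO, against 1.56-fold between the means. The log2 change of 0.64 ± 0.51 did not pass (edgeR adjusted p = 0.383), and with 1 library left out it lay between 0.07 and 1.32. Prdx2 on the opposite strand covers 7.52% of its exonic bases.

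Egr1, Nr4a1 and Atf3 lie outside the Fos and Jun families. Egr1 encodes a zinc finger factor induced by stretch and injury in vessels (ENSMUSG00000038418.7, chromosome 18, 34859823 to 34864984, plus strand). It had 157 and 147 CPM in ALLO, and 244 and 500.3 CPM in ISO. Both ALLO libraries were lower and nearly alike, while ISO replicate 2 stood 2.05-fold above ISO replicate 1. The log2 change of -1.29 ± 0.38 narrowly missed the threshold (edgeR adjusted p = 0.0536). Egr1 passed as lower with DESeq2 (-1.28, adjusted p = 0.00689), limma-voom (-1.20, 0.0442) and no filter (-1.31, 0.0211). It also passed without antigen receptor, mitochondrial and ribosomal RNA genes (-1.27, edgeR adjusted p = 0.0454) and with counts divided by 2 (-1.28, 0.0486). It did not pass with other scalings, the other filter or the replicate block (edgeR adjusted p = 0.05001 to 0.0836). Leaving out ISO replicate 1 gave -1.73 and ISO replicate 2 -0.71, while leaving out ALLO replicate 1 gave -1.31 and ALLO replicate 2 -1.25.

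Nr4a1 encodes Nur77, an orphan nuclear receptor that T cells induce upon antigen receptor signalling (ENSMUSG00000023034.7, chromosome 15, 101254269 to 101274795, plus strand). It had 90.4 and 138 CPM in ALLO, and 180.4 and 229 CPM in ISO, with every ALLO value under every ISO value. The log2 change of -0.84 ± 0.29 did not pass (edgeR adjusted p = 0.0795). It passed with DESeq2 (-0.82, adjusted p = 0.0353) and without ALLO replicate 2 (-1.17, edgeR adjusted p = 0.0414). It did not pass without ALLO replicate 1 (-0.53, edgeR adjusted p = 0.200) or with either ISO library left out.

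Atf3 encodes a stress-induced basic leucine zipper protein that pairs with Jun proteins (ENSMUSG00000026628.13, chromosome 1, 191170296 to 191218039, minus strand). It had 54.8 and 59.1 CPM in ALLO, and 61.2 and 79.3 CPM in ISO. The groups were separate but close, and the log2 change of -0.30 ± 0.20 did not pass (edgeR adjusted p = 0.303). Leaving out ISO replicate 1 gave -0.49, while leaving out ISO replicate 2 gave -0.13.

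**Figure D2:**
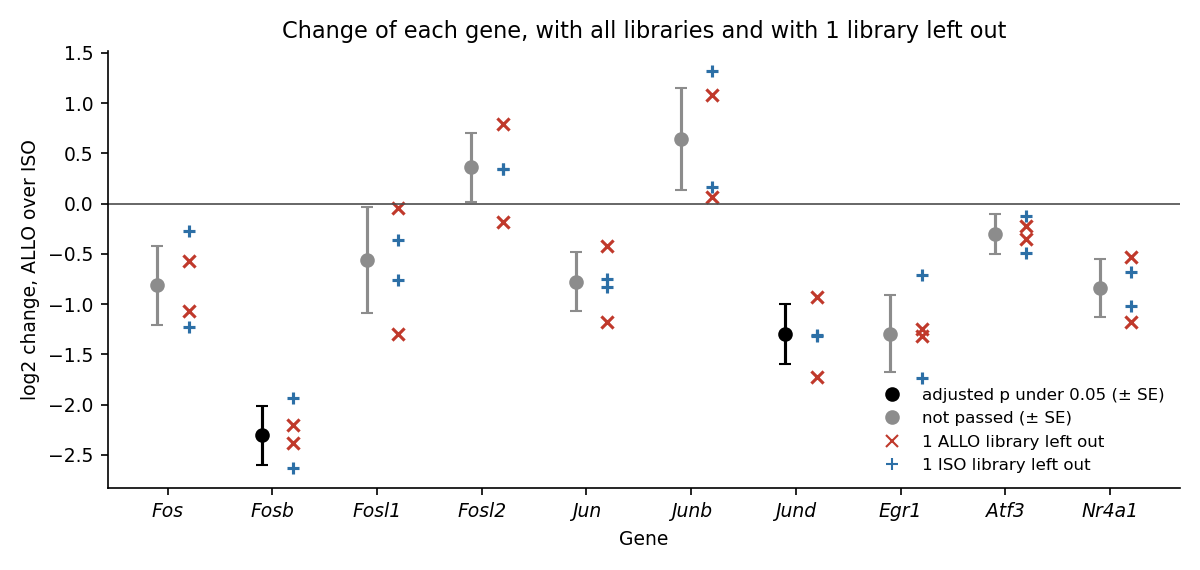
Log2 change (ALLO over ISO) of each gene with its SE, black where the edgeR adjusted p was under 0.05 and grey otherwise, with crosses for fits without 1 ALLO library and plus signs for fits without 1 ISO library. Fosb lies between -1.93 and -2.63 in the fits without 1 library, while Fosl2 crosses 0.

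Per kilobase of exon, where levels of different genes can be compared, the group held both abundant and scarce transcripts. In ALLO the order by mean CPM per kb began with Junb (133), Fos (80.9), Jund (45.5) and Jun (41.6). In ISO it began with Fos (142), Jund (112), Junb (85.3) and Egr1 (83.0). Fosb and Fosl1 came last in both groups. Fosb averaged 2.65 CPM per kb in ALLO and 13.1 in ISO, which placed it above 38.1% of the genes tested in ALLO and above 78.0% in ISO. Fosl2, at 17.9 CPM per kb in ALLO and 13.9 in ISO, was 4.88 and 8.43 times Fosb in ALLO replicates 1 and 2, against 1.39 and 0.862 times in ISO replicates 1 and 2.

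The make-up of each family was described as shares of its summed CPM per kb, which do not depend on the scaling between libraries. Fosb made up 2.25% and 2.92% of the Fos family in ALLO, and 8.06% and 7.38% in ISO. Its share was lower in both ALLO libraries, by 5.13 percentage points on average (a mean of 2.59% in ALLO and 7.72% in ISO). Fos was the main member in all libraries, with 85.6% and 69.3% in ALLO, and 77.8% and 85.0% in ISO. Fosl2 took 11.0% and 24.6% in ALLO, against 11.2% and 6.36% in ISO. For Fos and Fosl2 the groups overlapped. When counts were not divided by length, Fosl2 took 32.8% and 56.1% in ALLO, against 31.3% and 19.9% in ISO. Its share was then above that of Fos (38.4%) in ALLO replicate 2.

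Junb made up 57.9% and 61.9% of the Jun family in ALLO, and 22.1% and 39.5% in ISO. Its share was higher in both ALLO libraries. The mean shares of Junb were 59.9% in ALLO and 30.8% in ISO, a difference of 29.1 percentage points, and of 20.4 without ISO replicate 1. Jund, whose count is uncertain as given above, held 21.8% and 20.0% in ALLO, and 47.1% and 37.3% in ISO. Jun held 20.3% and 18.1% in ALLO, and 30.8% and 23.2% in ISO. A share rises when other members fall, and Junb itself did not pass the test. With 2 libraries against 2 an exact permutation test cannot give a two-sided p below 0.333, so no test was made on shares.

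**Figure D3:**
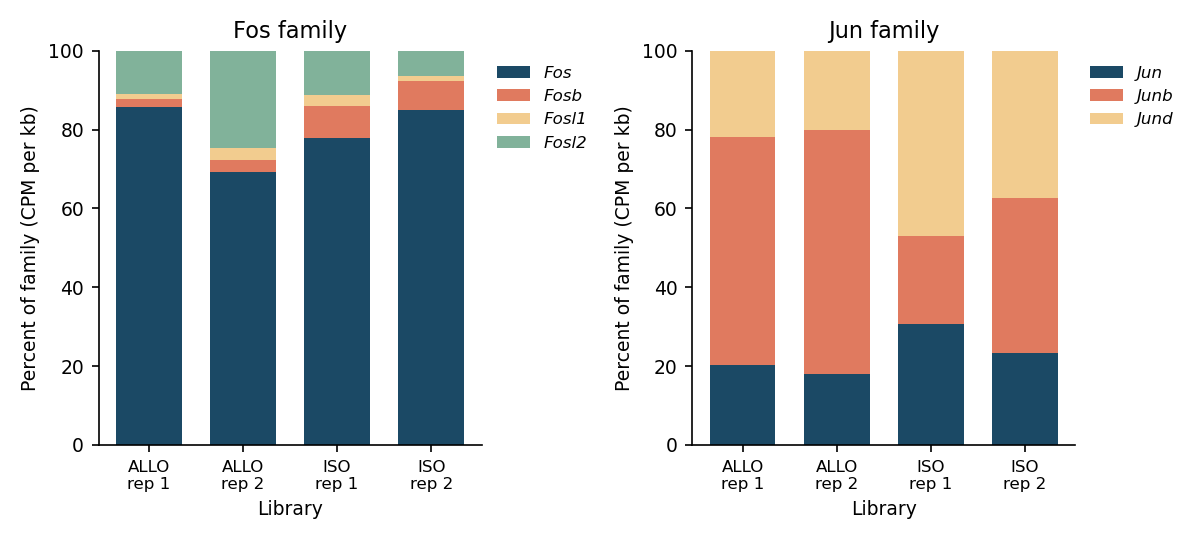
Percent of summed CPM per kb that each gene contributed to the Fos family (left) and the Jun family (right), 1 bar per library, ALLO bars left of ISO bars. The Junb segment covers 57.9% and 61.9% in ALLO and 22.1% and 39.5% in ISO.

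Genes around these factors were read from 7 lists of 152 genes in all. Over all genes tested, 18.4% rose and 14.8% fell, which are the shares to set beside the list counts below. Of the 146 list genes tested, 39 rose and 31 fell. Without ALLO replicate 2 these numbers were 23 and 35, and without ISO replicate 2 they were 23 and 24, so the balance of the calls turned. Among 26 other basic leucine zipper genes, 8 of 25 tested rose and 3 fell, with a median log2 change of 0.07, which was -0.02 with limma-voom and with the replicate block. Batf3, the partner of Jun proteins in dendritic cells, had 7.50 and 13.1 CPM in ALLO, against 0.819 and 0.604 CPM in ISO (log2 change 3.85 ± 0.50, edgeR adjusted p = 0.00684). Bach1, a repressor that pairs with small Maf proteins, rose to 123 and 116 CPM in ALLO, against 38.6 and 40.3 CPM in ISO. Its relative Bach2 changed by 2.15 ± 0.32. Mafk, one of those small Maf proteins, fell, with 36.9 and 49.0 CPM in ALLO, and 163 and 204 CPM in ISO, and the stress factor gene Atf5 fell by 1.71 ± 0.27 on the log2 scale.

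Other immediate early genes went both ways, with 9 of 36 tested higher, 8 lower and a median of -0.02, which was 0.01 with DESeq2 size factors and 0.18 with library size alone. Without ALLO replicate 2 the calls were 5 higher and 11 lower with a median of -0.29. They were 4 higher and 6 lower without ISO replicate 2, and 5 higher and 5 lower without ALLO replicate 1, with medians of 0.02 and 0.20. Egr2, a relative of Egr1 known in activated T cells and macrophages, had 14.8 and 25.4 CPM in ALLO, against 2.69 and 1.93 CPM in ISO. It rose by 3.12 ± 0.42 on the log2 scale (edgeR adjusted p = 0.00735), while Egr1 had the change of -1.29 given above. Per kilobase, Egr1 was 8.03 and 4.38 times Egr2 in ALLO, and 68.7 and 196 times in ISO. Trib1, a pseudokinase gene, and Sik1, a salt-inducible kinase gene, rose by 1.72 ± 0.19 and 1.81 ± 0.24. Npas4, known from calcium signalling in neurons, had 2.93 and 3.31 CPM in ALLO, and 30.1 and 35.9 CPM in ISO (log2 change -3.40 ± 0.27). Gem, a small GTPase that inhibits calcium channels, changed by -1.94 ± 0.22.

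Upstream, SRF and its cofactors had 5 of 13 lower and 2 higher, with a median of -0.63. Calls numbered 4 without ISO replicate 1 and 2 without ISO replicate 2. Srf itself, which drives Fos, Egr1 and contractile genes, had 29.7 and 56.6 CPM in ALLO, and 147 and 151 CPM in ISO (log2 change -1.79 ± 0.34, edgeR adjusted p = 0.0175). Myocd, its cofactor in smooth muscle and also a smooth muscle marker, changed by -4.85 ± 0.38, and the CREB coactivator gene Crtc3 by -0.89 ± 0.18. Elk3 and Elk4, ternary complex factors that dock on SRF at Fos and Egr1, rose by 1.37 ± 0.27 and 0.82 ± 0.19.

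MAP kinase genes had 2 of 23 tested higher and 2 lower, with a median of -0.12 (0.07 with library size alone), and 2 calls in all without ISO replicate 2. Rps6ka1, the gene of a kinase downstream of ERK, had 118 and 113 CPM in ALLO, against 10.1 and 4.35 CPM in ISO (log2 change 4.00 ± 0.44). Mapk14, the p38 alpha gene, changed by 0.83 ± 0.19, the JNK scaffold gene Mapk8ip1 by -1.48 ± 0.30 and the p38 activator gene Map2k3 by -0.82 ± 0.21. Among all genes tested 33.1% passed, a share above that of the MAP kinase genes and close to that of the feedback inhibitors. Feedback inhibitors had 5 of 18 higher and 1 lower, with a median of -0.25. Without ALLO replicate 2 the calls were 2 higher and 3 lower (Dusp1, Dusp8 and Errfi1), and without ISO replicate 2 they were 2 higher and 1 lower. Dusp2, a nuclear phosphatase of activated leukocytes, had 34.5 and 59.8 CPM in ALLO, against 1.81 and 1.33 CPM in ISO (log2 change 4.90 ± 0.41). Dusp4 and Spred1 rose by 2.35 ± 0.48 and 0.96 ± 0.17, and Dusp8, a phosphatase gene that acts on JNK and p38, had 4.21 and 13.5 CPM in ALLO, and 118 and 91.2 CPM in ISO.

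Genes with AP-1 sites known from textbooks had 13 of 20 tested higher and 1 lower, with a median of 2.06, or 1.98 when genes absent from ISO were set at a floor of 6 counts per library. Without ALLO replicate 2, 8 passed. Ccl2, a monocyte chemokine gene, had 35.3 and 39.9 CPM in ALLO, against 3.68 and 1.93 CPM in ISO. Mmp12, the macrophage elastase gene, had 196 and 255 CPM in ALLO, against 5.20 and 0.966 CPM in ISO, and the hyaluronan receptor gene Cd44 changed by 1.56 ± 0.21. These genes are under many other factors as well.

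Heat shock genes, which like the immediate early genes respond to stress, fell in 11 of 12 cases, with 1 not passed and a median of -1.73. Their summed level was 2005 and 1908 CPM in ALLO, and 7362 and 6635 CPM in ISO. Hspa1a had 13.5 and 15.2 CPM in ALLO, and 483 and 558 CPM in ISO, and Hspa1b 28.0 and 27.0 CPM in ALLO, and 977 and 1003 CPM in ISO. The copies are nearly identical, so the division of reads between them is uncertain. Hsph1 had 48.0 and 45.0 CPM in ALLO, and 594 and 412 CPM in ISO. The part of this difference in heat shock transcripts in the values of the 10 genes was not tested.

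**Figure D4:**
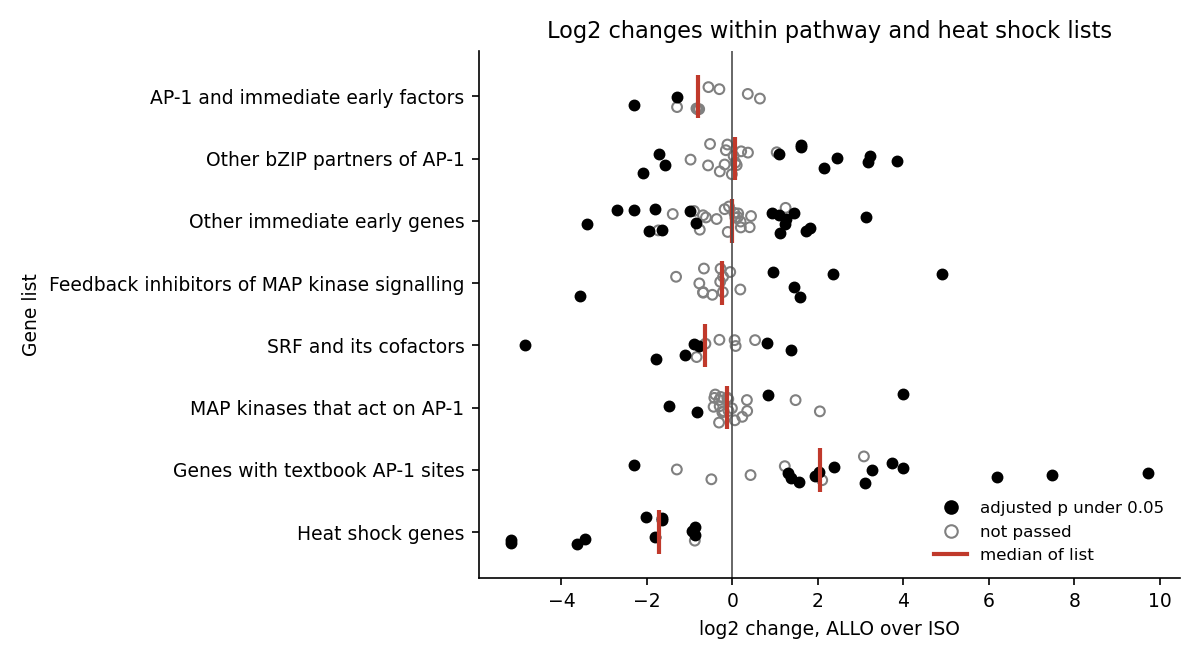
Log2 changes (ALLO over ISO) of the tested genes of each list, filled where the edgeR adjusted p was under 0.05, with red bars at list medians of -0.79 for the 10 factors, 2.06 for textbook AP-1 sites and -1.73 for heat shock genes. Fitted values of genes with 0 counts in ISO, such as Il6 and Mmp10, depend on the prior count and are not measured folds.

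Cell type markers moved with the groups as well. All 9 smooth muscle markers fell, and 4 of 8 endothelial markers fell, with sums of 693 and 783 CPM in ALLO, and 1652 and 1654 CPM in ISO. All 10 T cell markers rose, with sums of 458 and 386 CPM in ALLO, against 12.5 and 3.86 CPM in ISO, and 7 of 8 macrophage markers rose, with sums of 3667 and 4182 CPM in ALLO, against 596 and 321 CPM in ISO. Of 5 B cell markers 0 passed with edgeR (1 at an unadjusted p under 0.05), 0 with DESeq2 and 1 with limma-voom, with sums of 242 and 106 CPM in ALLO, against 38.6 and 0.422 CPM in ISO. Of 7 fibroblast markers 1 fell and the other 6 did not pass. They summed to 9070 and 12269 CPM in ALLO, against 4656 and 5147 CPM in ISO, of which the collagen gene Col1a1 alone had 5918 and 10462 CPM in ALLO, against 1974 and 3357 CPM in ISO (edgeR adjusted p = 0.0702). The other 6 summed to 3152 and 1807 CPM in ALLO, against 2682 and 1790.5 CPM in ISO. Neutrophil markers had 2 of 5 tested higher, with 318 and 156 CPM in ALLO, against 139 and 14.1 CPM in ISO. Adipocyte markers had 2 of 5 tested higher, with 977 and 1282 CPM in ALLO, against 875 and 606 CPM in ISO. Striated muscle markers were near 0, at 8.99 and 3.99 CPM in ALLO, and 11.3 and 13.9 CPM in ISO, with 1 of 4 tested lower. The part of this shift in cell types in the values of the 10 genes was not tested.

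The genes whose pattern over the 4 libraries was most like that of Fos, among 12171 protein-coding genes with a mean of at least 50 counts, were Dync2li1, Cep112 and Pecr, at root mean square distances of 0.06, 0.09 and 0.11 on the centred log2 CPM scale. Of the other members, Egr1 was the nearest to Fos, at 0.27 and rank 165. For Fosl2 the nearest were Fn1 (0.02), which encodes the matrix protein fibronectin, Zbtb45 (0.04) and Lypla2 (0.04). With 4 libraries in 2 groups many genes share any pattern, and these likenesses are descriptions.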

How the data were processed

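Gene expression was measured by RNA sequencing in 2 ALLO and 2 ISO libraries. The authors deposited raw counts of reads for each gene, beside exonic lengths, in the column layout of featureCounts. The submitters' processing notes list R 4.0.3, DESeq2 1.30.0, featureCounts and Subread 1.6.4, and the build mm10. Aligner, annotation release and strand setting were not given in the sources used here. Of genes with 1 to 20 counts, 68.0% to 74.6% had an even count, so mates of a pair may have been counted separately. Symbols were found for 54723 of 54752 IDs when the version suffix of the ID was ignored, and for 53861 with it. GENCODE M21 gave gene types and exon overlaps, and 54037 IDs had the same coordinates there.

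Genes passing filterByExpr (minimum count 10; 16498 genes) were scaled by TMM (factors 0.926 to 1.09) and tested by quasi-likelihood in edgeR 4.0.16 (glmQLFTest, with no covariate besides group), and p-values were adjusted by Benjamini-Hochberg over all of them. Standard errors were taken as the log2 change over the square root of F. The common biological coefficient of variation was 0.324. The procedure was tested on simulated counts. Replicates differed beyond sampling noise (chi-square over degrees of freedom 22.9 in ISO and 77.1 in ALLO, on counts divided by 2). DESeq2 1.42.0, limma 3.58.1, other scalings and filters, a replicate block, removal of antigen receptor, mitochondrial and ribosomal RNA genes, and leaving out each library were alternatives. Counts divided by 2 were an alternative chosen after seeing the data. R 4.3.3 and Python 3.11.15 were used.

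The 10 genes and the lists were chosen with earlier results of these data known. From each list up to 3 genes with the smallest p in the more frequent direction of its calls and up to 2 in the other, with a mean of at least 50 counts, were named; Il6 and Mmp10 were named after their values were seen. A gene that this rule would name is not reported here.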

Additional observations from a re-analysis of the deposited data

How the results depend on the processing

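Of 140 values of the 10 genes under 14 alternatives each, 126 kept their direction and their side of the threshold, 10 newly passed and 3, all of Jund, no longer passed. The change of Fosl2 had the opposite sign without ALLO replicate 2 (-0.18) and passed without ALLO replicate 1 (0.79); with 4 libraries it had not passed. The number of the 10 genes that passed was 1 with scaling by library size alone, where 5413 of all 16498 genes passed. It was 4 with DESeq2, where 6592 passed. As reported it was 2, where 5469 passed, and the cause of these moves was not tested. Scaling by library size alone moved the log2 changes by a median of 0.19 and gave 3546 genes higher and 1867 lower (65.5% higher) against 3032 and 2437 (55.4%). Over all genes, 3603 to 4651 passed with 1 library left out, against 5469 with all. The difference in the share of Fosb in its family (ALLO minus ISO) was -10.4 percentage points when counts were not divided by length, since its exons are longer than those of Fos. With 1 library left out, the difference in share was -4.79 to -5.48 points for Fosb and 20.4 to 37.8 points for Junb, and 47 to 60 genes of the 7 lists passed, against 70. Same-numbered libraries deviated together with a correlation of 0.0974, and the labels do not say that numbers pair samples. With replicate number as a block, 4873 genes, 69 list genes and the same 2 of the 10, Fosb and Jund, passed. Depth was lowest for Fosl1 among the 10, at 43 to 114 counts a library. A lone library left in a group was assumed to vary like the other group.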

Other observations

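Within ISO, 7 of the 10 genes were higher in replicate 2 than in replicate 1, led by Junb (2.25-fold), Egr1 (2.05-fold) and Fos (1.95-fold), while Jund and Fosl2 had ratios of 0.998 and 1.01. Within ALLO, 8 of 10 were higher in replicate 2, led by Fosl1 (2.34-fold), Junb (1.98-fold) and Fosl2 (1.92-fold), and Fos was 1.44-fold higher in replicate 1. Of 36 other immediate early genes tested, 21 were higher in ISO replicate 2, and the median log2 ratio of replicate 2 to replicate 1 was 0.24. For heat shock genes that median was -0.06, and for the 10 genes it was 0.36. In ALLO the medians were 0.67 for the 10 genes, 0.42 for other immediate early genes and 0.55 for smooth muscle markers. They were 0.03 for heat shock genes and -0.15 for T cell markers. The share of all genes tested that were higher in replicate 2 was not counted. ISO replicate 1 was also the library with 10647 counts of Xist and 0 of Ddx3y. T cell and macrophage markers were lower in ISO replicate 2, in 10 of 10 and 8 of 8 cases. Mitochondrial genes took 1.92% and 1.87% of counts in ALLO, and 9.02% and 5.42% in ISO.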
